A study of Homo sapiens with 24 samples.

Results

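The genes described here encode the nuclear subunits, assembly factors and regulators of the mitochondrial respiratory chain and ATP synthase. They were taken by symbol, as every probe whose platform gene name begins with NDUF (complex I), UQCR (complex III), COX4 to COX8 (complex IV) or ATP5 (ATP synthase), and a probe was kept where its signal stood above the negative control beads in all 3 samples of 1 or more groups, at a detection p of 0.05. The symbols matched 124 probes of 90 genes, and 108 probes of 81 genes passed, among 21580 probes and 12221 named genes that passed in the whole series. The rule itself uses no difference between samples, although the gene group was picked with earlier results of these data known. The genes without a passing probe were COX7A1 and COX6A2, the heart and muscle forms of 2 complex IV subunits, COX4I2, COX7B2 and COX8C, forms found mainly in lung or testis, the complex I subunits NDUFC2, NDUFA5 and NDUFS6, and the antisense RNA NDUFB2-AS1. Of the 81 genes, ATP5F1EP2 and UQCRBP1 are pseudogenes, UQCRHL is a near-copy of UQCRH, 8 are complex I assembly factors and ATP5IF1 encodes an inhibitor, so that not every member is a subunit. Probes of near-identical copies may read each other's transcripts, and their values are uncertain in that respect.

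SCC-61 cells, an established head and neck squamous carcinoma line, and HaCaT cells, an immortal but nontransformed keratinocyte line, were starved in medium with low serum. They were then left untreated or exposed to AMP-18, a secreted protein of the gastric antrum mucosa, at 2 µg/ml. RNA was taken after 2 h or 24 h, and Illumina bead arrays were hybridized with 3 samples for each of the 8 combinations, 24 in all. The 8 groups were SCC-61 untreated for 2 h, SCC-61 with AMP-18 for 2 h, SCC-61 untreated for 24 h, SCC-61 with AMP-18 for 24 h, and the same 4 conditions of HaCaT. Each line stands for its cell type alone, and line and growth medium cannot be told apart, because SCC-61 was grown with hydrocortisone in a different medium. No label tells separate cultures from repeats of 1 culture, and the spread that the p-values measure may therefore be technical. All 9 of the keratinocyte and epithelial genes with a probe passed detection on all 12 arrays of each line, and 0 of 4 probed striated muscle genes did so on any array. Of 8 fibroblast genes, 4 passed on all 12 SCC-61 arrays and 0 on all 12 HaCaT arrays, of 6 leukocyte genes 2 did so in each line, and of 4 endothelial genes 1 did so in SCC-61 and 0 in HaCaT. Each array detected 18767 to 22161 of 47323 probes.

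Electrons from NADH enter the respiratory chain at complex I and pass through ubiquinone, complex III and cytochrome c to complex IV, which reduces oxygen. The protons pumped on the way drive the ATP synthase, whose membrane ring of c subunits turns the central stalk inside the catalytic F1 head. Apart from a set of core subunits encoded in mitochondrial DNA, all of these proteins are made from nuclear genes and must be imported and put together by assembly factors. The factors NRF1, NRF2 (an ETS-family protein, GABP) and YY1 are known regulators of many of these nuclear genes.

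The sequence just upstream of several members is shown because binding motifs of these 3 factors were commoner in the members' promoters than in the reference as a whole. RefSeq promoters of GRCh38.p14, from 250 bases before to 50 after the annotated start, were found for 68 of the 81 genes. The motifs searched, on both strands, were the NRF1 motif, whose matches are written out in the sequences, CCGGAAGT for ETS factors and AAGATGGC for YY1, and no match of one overlapped a match of another. At least 1 of them was present in 28 of the 68 promoters (41.2%), against 12.5% of 27305 promoters. The 27305 were not limited to genes detected in these cells, as the members were. The share among detected genes was not computed, so these shares do not set the members apart from other expressed genes. For NRF1 the shares were 20.6% and 6.28%, for ETS 13.2% and 4.44%, and for YY1 14.7% and 3.03%. Promoters of complex III genes held a motif in 5 of 6 cases and those of complex IV in 2 of 11. Among genes that fell with AMP-18 in the first comparison described, 5 of 15 promoters held one, and among the rest 23 of 53. The examples are the F1 subunit gene ATP5F1C (chr10:7787927-7788176, plus strand), the small membrane subunit genes ATP5MJ (chr14:103921530-103921779, minus strand) and ATP5MK (chr10:103396476-103396725, minus strand), and the peripheral stalk gene ATP5PO (chr21:33915805-33916054, minus strand), each shown for the 250 bases before its start. For ATP5PO (chr21:33915755-33915784) and the complex I gene NDUFA6 (chr22:42090729-42090758, minus strand), 30 bases around a YY1 match just inside the start are also shown. Capitals mark the motif matches, and a match is a description of the letters and not evidence of binding.
ATP5F1C upstream, NRF1: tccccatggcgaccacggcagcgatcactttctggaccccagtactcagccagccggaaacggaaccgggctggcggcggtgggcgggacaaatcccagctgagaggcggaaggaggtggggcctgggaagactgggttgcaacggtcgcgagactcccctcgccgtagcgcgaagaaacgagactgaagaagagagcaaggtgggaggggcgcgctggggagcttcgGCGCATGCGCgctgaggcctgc
ATP5MJ upstream, NRF1: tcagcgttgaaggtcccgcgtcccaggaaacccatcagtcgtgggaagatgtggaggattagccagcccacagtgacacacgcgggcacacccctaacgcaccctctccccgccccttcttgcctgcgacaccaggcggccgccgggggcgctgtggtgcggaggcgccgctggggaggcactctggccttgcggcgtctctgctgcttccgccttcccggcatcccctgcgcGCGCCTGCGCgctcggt
ATP5MK upstream, ETS: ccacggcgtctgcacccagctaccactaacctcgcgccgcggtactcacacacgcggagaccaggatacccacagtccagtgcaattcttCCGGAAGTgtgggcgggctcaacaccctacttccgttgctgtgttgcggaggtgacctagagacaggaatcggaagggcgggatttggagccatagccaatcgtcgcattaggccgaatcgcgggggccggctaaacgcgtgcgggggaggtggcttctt
ATP5PO upstream, NRF1: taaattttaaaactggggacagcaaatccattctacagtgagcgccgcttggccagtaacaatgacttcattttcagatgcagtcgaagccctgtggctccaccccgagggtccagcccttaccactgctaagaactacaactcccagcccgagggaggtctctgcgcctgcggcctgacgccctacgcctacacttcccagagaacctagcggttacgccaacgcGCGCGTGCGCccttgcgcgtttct
ATP5PO start, YY1: cctacagccgcccgggagAAGATGGCtgcc
NDUFA6 start, YY1: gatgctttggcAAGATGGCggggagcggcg

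Values are log2 intensities, and limma estimated the 8 group means jointly from the 24 arrays. The brightest probe stood for a gene with several, the Benjamini-Hochberg adjustment ran over all 21580 probes, and an adjusted p under 0.05 passed. Since every array had the same overall distribution of values, a lower level is lower relative to the other probes of the array. In such bulk RNA, fewer cells holding a transcript and less of it per cell cannot be told apart.

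A set of these genes was lower in SCC-61 cells after 2 h with AMP-18. Of the 81 genes, 18 fell and 0 rose, against a background in which 3.25% of all 12221 genes fell and 6.28% rose. The members were brighter than most probes tested, with a median of 10.08 on the first untreated array against 6.03 for all kept probes. No comparison with genes of like brightness was made. The falls were small, from -0.32 to -0.17 on the log2 scale, which is 19.9% to 11.3% lower. The direction was shared by most of the rest, with 70 genes below 0 (50% of all genes) and 11 above, and the median of the 81 was -0.12 against 0.00 for all genes. On 32 genes every treated array was below every untreated array, and on 0 genes the reverse held, where 13.6% and 16.1% of all genes did so. The genes that fell came from each complex. They included 1 of 6 core and 7 of 27 accessory subunits of complex I and 1 of 8 of its assembly factors. Of complex III 2 of 8 genes fell, and of complex IV 2 of 12. In the ATP synthase, 2 of 5 genes of the F1 part, central stalk included, fell. So did 2 of 12 of its peripheral stalk, ring and membrane part, and 1 of 2 pseudogenes. The plot of AMP-18 effects by complex shows these values beside those of the other 3 AMP-18 comparisons.

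**Figure D1:**
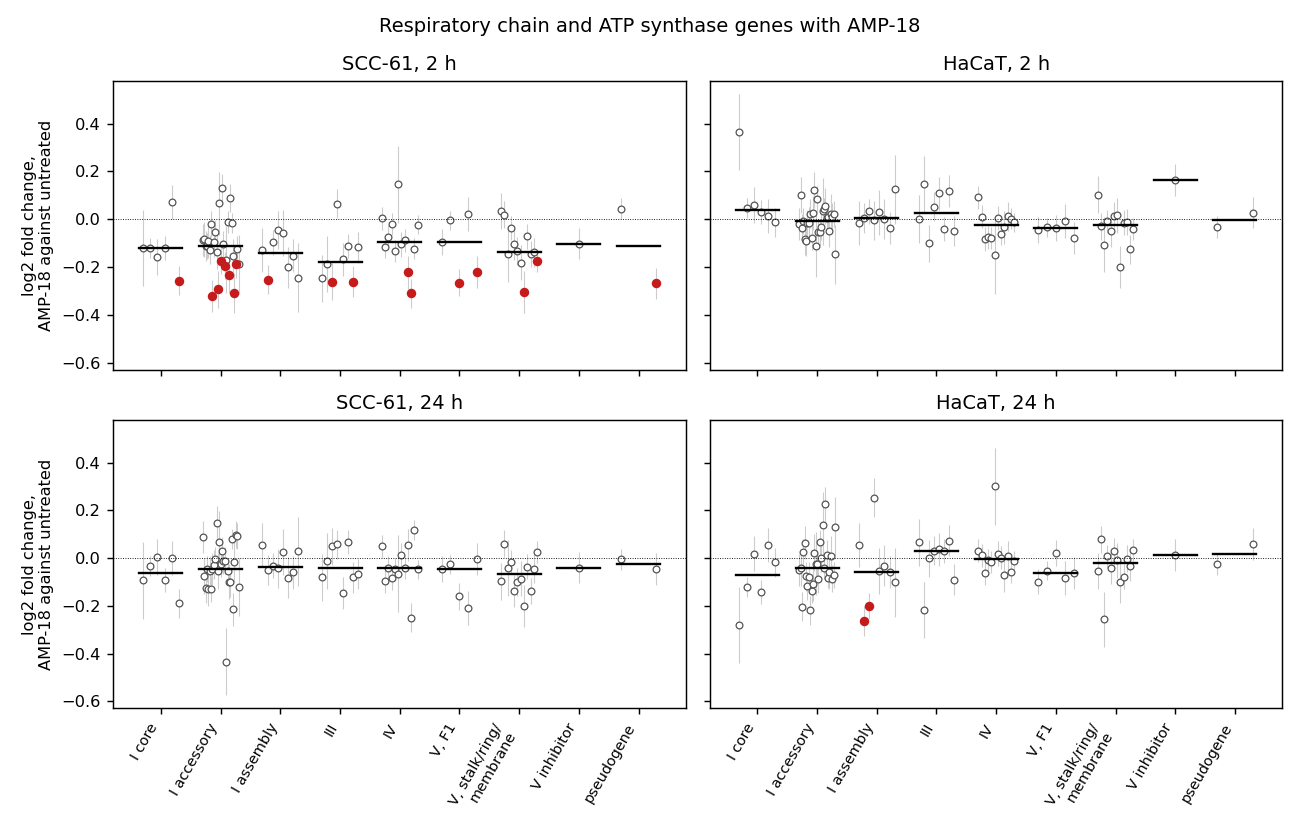
Log2 fold change of each of the 81 genes with AMP-18 against untreated cells (vertical axis), by complex (horizontal axis), in 4 panels for the 2 lines and 2 times; grey bars are standard errors, black lines class medians, and red points passed the adjusted p of 0.05. In SCC-61 at 2 h 18 genes passed, all lower, and in the other panels 0, 0 and 2 did.

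In complex I, NDUFA6, an accessory subunit of the hydrophilic arm, read 7.80, 7.71 and 7.74 on the untreated SCC-61 arrays at 2 h and 7.41, 7.45 and 7.42 with AMP-18. The treated arrays were tightly grouped and lay below all of the untreated ones, and the change was -0.32 (SE 0.066, limma adjusted p = 0.00228). NDUFV2, a core subunit of the NADH-oxidizing module that carries an iron-sulfur cluster, read 9.91, 9.89 and 9.88 untreated and 9.69, 9.61 and 9.61 treated, also without overlap (-0.26, SE 0.060, adjusted p = 0.00696). NDUFAF2, an assembly factor that binds a late intermediate of complex I, fell by 0.25 (adjusted p = 0.00978). NDUFC1, a small membrane-arm subunit, fell by 0.31 (adjusted p = 0.0174). NDUFAB1, the mitochondrial acyl carrier protein that is also a complex I subunit, read 10.31, 10.31 and 10.40 untreated and 10.28, 10.04 and 9.82 treated. Its treated arrays were spread over a wider range than those of the other genes named here, with the first just below the untreated group (-0.29, SE 0.077, adjusted p = 0.0152).

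In complex IV, COX7B, a small subunit needed for assembly of the enzyme, read 10.38, 10.39 and 10.33 untreated and 10.03, 10.12 and 10.03 treated in SCC-61 at 2 h. The groups were well apart and its adjusted p was the smallest of the 81 genes (-0.31, SE 0.061, adjusted p = 0.00159). COX7A2L, a factor that joins complexes III and IV into supercomplexes, fell by 0.22 (adjusted p = 0.0386). The other 10 complex IV genes gave values from -0.13 to 0.15 that did not pass, among them COX4I1 at 0.00 and COX8A at -0.02. NDUFA4, now named COXFA4 and counted as a complex IV subunit, lies outside the symbol rule and fell by 0.26 (adjusted p = 0.00427).

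In complex III, UQCRB, a ubiquinone-binding subunit, fell by 0.26 (adjusted p = 0.0318), and the probe of its pseudogene UQCRBP1 fell by 0.27 (adjusted p = 0.00978). The UQCRHL probe fell by 0.26 (adjusted p = 0.011), while for UQCRH itself the brightest probe gave -0.11 (adjusted p = 0.187) and the second probe -0.38 (adjusted p = 0.022). In the ATP synthase, ATP5F1C, the gamma subunit that forms the rotating stalk, read 9.16, 9.23 and 9.22 untreated and 9.03, 8.96 and 8.82 treated. All of the treated arrays were lower (-0.27, SE 0.055, adjusted p = 0.00268). ATP5MK, a small subunit linked to dimers of the enzyme, read 6.90, 6.85 and 6.86 untreated and 6.35, 6.65 and 6.69 treated (-0.31, SE 0.089, adjusted p = 0.0282), and one treated array was well below the others. The remaining members that fell were NDUFB6, ATP5F1E, NDUFB3, NDUFS4, ATP5PO and NDUFB10, by 0.17 to 0.23.

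The number of genes past the threshold rested on the arrays and on the estimate of spread. It was 8 without untreated replicate 1 or without untreated replicate 3, 10 without untreated replicate 2, 11 without treated replicate 2, and 13 and 15 without treated replicates 1 and 3. NDUFA6, NDUFV2, NDUFAF2, COX7B and ATP5F1C passed in every one of these 6 fits, and the other 13 of the 18 did not. With the methods' t-test, which the study states for its group comparisons in general and not for the arrays by name, 18 genes were lower and 0 higher at an unadjusted p under 0.05, where 20.4% of all genes reached it in either direction, and 0 passed after adjustment. The median of the 81 genes lay between -0.13 and -0.10 with any 1 array left out. With all arrays, 13 genes passed after cyclic loess (median -0.10) and 8 without the trend in the estimate of spread, all lower.

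In HaCaT at 2 h 0 of the 81 genes passed with limma, where 0% of all genes passed. A total of 4 had an unadjusted p under 0.05, as did 7.64% of all genes. With the methods' t-test 7 did, as did 9.59% of all genes, and 0 passed after adjustment. The median was -0.01, and 51.8% of all genes were below 0. Of the 18 genes that fell in SCC-61, 9 were below 0, with a median of 0.00. The difference between the lines was itself tested and passed for 3 genes, all with the lower value in SCC-61, where 1.03% of all genes passed in that direction. COX7B changed by -0.31 in SCC-61 and 0.01 in HaCaT, a difference of -0.32 (SE 0.086, limma adjusted p = 0.0295). UQCRHL read 11.42, 11.30 and 11.37 untreated and 11.31, 11.05 and 10.94 treated in SCC-61, and 11.19, 11.02 and 11.15 and then 11.27, 11.19 and 11.25 in HaCaT. Treated arrays were mostly lower in SCC-61 and mostly higher in HaCaT, with some overlap in each line. It differed by -0.38 (adjusted p = 0.0162), with -0.26 in SCC-61 and 0.12 in HaCaT. NDUFAB1 differed by -0.42 (adjusted p = 0.0266), with -0.29 and 0.12. For NDUFA6 the difference of -0.31 did not pass (adjusted p = 0.0593). The number of genes that passed was 0 without SCC-61 treated replicate 3 or without HaCaT untreated replicate 2. It was 1 without SCC-61 untreated replicate 1 or HaCaT treated replicate 1 or 2, and 9 without SCC-61 treated replicate 1. None of the 3 genes passed in every one of these 12 fits. The plot of single arrays shows these genes in all 8 groups.

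**Figure D2:**
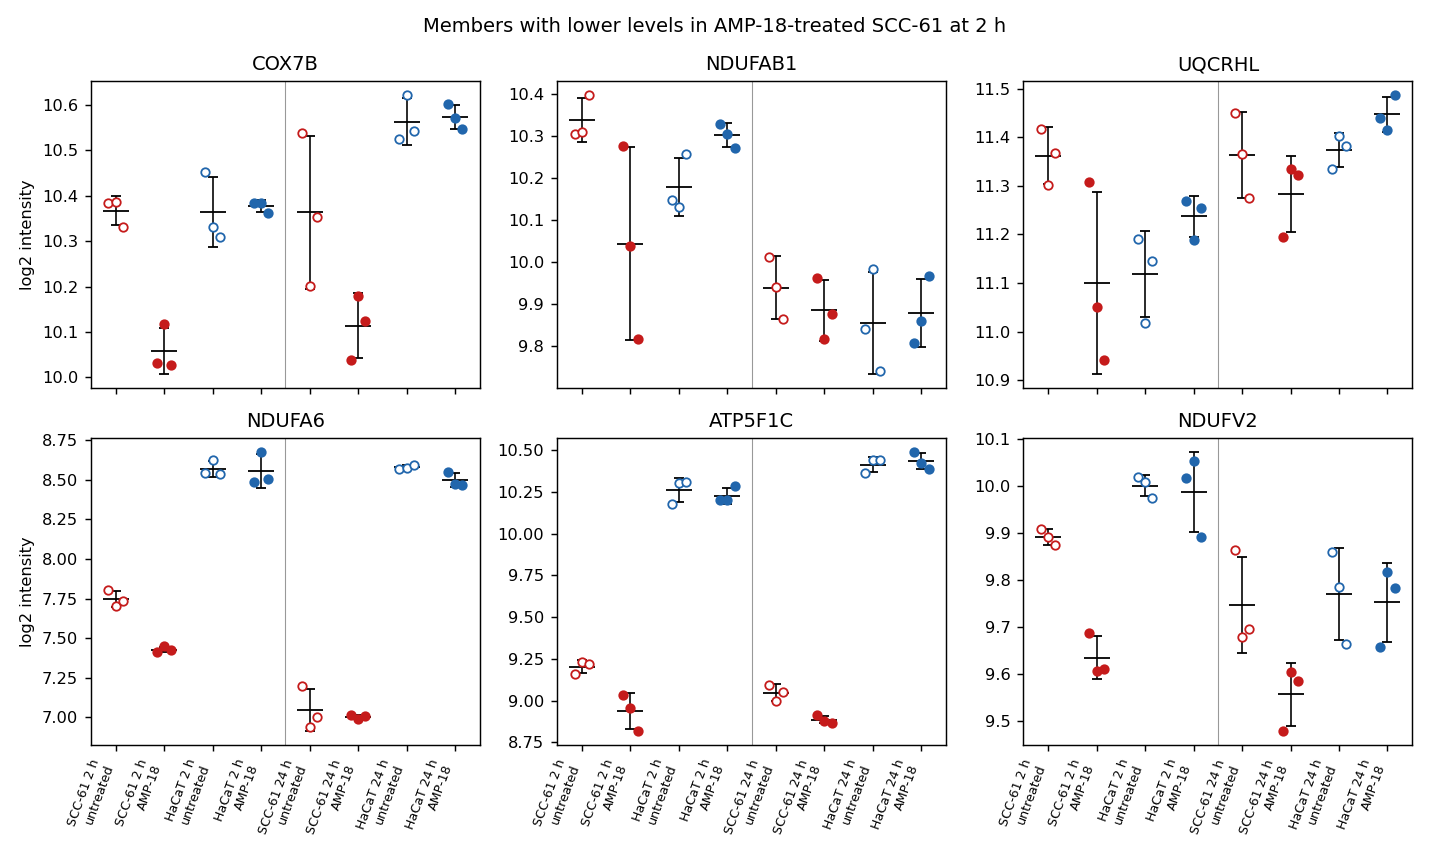
Log2 intensity (vertical axes) of COX7B, NDUFAB1, UQCRHL, NDUFA6, ATP5F1C and NDUFV2 on every array, by group (horizontal axis); red is SCC-61, blue HaCaT, open points untreated, filled points AMP-18, and black marks are the mean and SD of 3 arrays. For COX7B, NDUFA6, ATP5F1C and NDUFV2 at 2 h, the filled red points lie below the open red points and the blue points of both treatments overlap.

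After 24 h of AMP-18, 0 of the 81 genes passed in SCC-61, where 0.344% of all genes did. An unadjusted p under 0.05 was reached by 13 genes, 11 lower and 2 higher, and by 10.3% of all genes in either direction. With the methods' t-test 9 genes and 11.5% of all genes reached it, and 0 of the 9 passed after adjustment. COX7B was again the gene of smallest p, with 10.54, 10.20 and 10.35 untreated and 10.04, 10.18 and 10.12 treated. The untreated arrays were widely spread and the lowest was only just above the treated ones (-0.25, SE 0.061, adjusted p = 0.0673). It passed without untreated replicate 2, where the count was 1. Of the 18 genes that fell at 2 h, 14 were below 0 at 24 h, with a median of -0.05, where 47.2% of all genes were below 0. The change of the AMP-18 effect between 2 h and 24 h passed for 1 gene, COX7C, a complex IV subunit, where 2.12% of all genes passed. It read 12.38, 12.46 and 12.42 untreated and 12.23, 12.33 and 12.32 treated at 2 h, and 12.25, 12.29 and 12.27 and then 12.44, 12.40 and 12.33 at 24 h. The treated arrays lay below the untreated ones at 2 h and above them at 24 h. Its AMP-18 effect was -0.12 at 2 h and 0.12 at 24 h, neither of which passed, and the difference was 0.24 (SE 0.061, adjusted p = 0.0368). That count was 0 without SCC-61 untreated replicate 2 or 3 at 2 h, untreated replicate 2 at 24 h, or treated replicate 1 or 2 at 24 h. It was 2 without treated replicate 1 at 2 h or untreated replicate 3 at 24 h, and 4 without treated replicate 3 at 2 h. COX7C itself did not pass in 8 of the 12 fits with an array left out. Both counts of 2 were of other members.

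In HaCaT at 24 h with AMP-18, 2 of the 81 genes fell and 0 rose, where 1.25% of all genes fell. Both are complex I assembly factors. NDUFAF2 read 8.08, 7.95 and 7.88 untreated and 7.74, 7.74 and 7.64 treated (-0.26, adjusted p = 0.0259). NDUFAF3 read 9.68, 9.65 and 9.74 untreated and 9.52, 9.47 and 9.49 treated (-0.20, adjusted p = 0.0475). Treated and untreated arrays did not overlap for either gene. The count was 0 without untreated replicate 1 or 2 or treated replicate 3, 1 without untreated replicate 3, and 3 without treated replicate 1 or 2. NDUFAF3 passed in none of these 6 fits, and NDUFAF2 was lost in 3 of them. Each count of 3 held only 1 of the 2 genes, beside other members. The core subunit gene NDUFS1 was not well above background on any treated array of this group and gave no call (adjusted p = 0.418). The difference of the AMP-18 effect between the lines at 24 h passed for 0 genes with limma, where 0.205% of all genes passed. An unadjusted p under 0.05 was reached by 13, and by 11.9% of all genes.

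The untreated lines differed in many members, as in genes at large. At 2 h 54 of 81 genes passed, against 63.3% of all genes. A total of 41 were lower in SCC-61 than in HaCaT and 13 higher, where 32% of all genes were lower and 31.3% higher. At 24 h 56 passed, against 70.5%, with 38 lower and 18 higher, where 36.6% and 33.9% of all genes were. The median of the members was -0.15 at 2 h and -0.11 at 24 h, and that of all genes -0.01 and -0.04. No array is shared between these 2 comparisons. A total of 31 genes were lower at both times, 7 higher at both and 4 turned from one side to the other, where 22.7%, 23.1% and 6% of all genes did so. Across the 81 genes the values correlated with r = 0.70, against 0.80 across all genes, as a description over genes that are not independent.

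**Figure D3:**
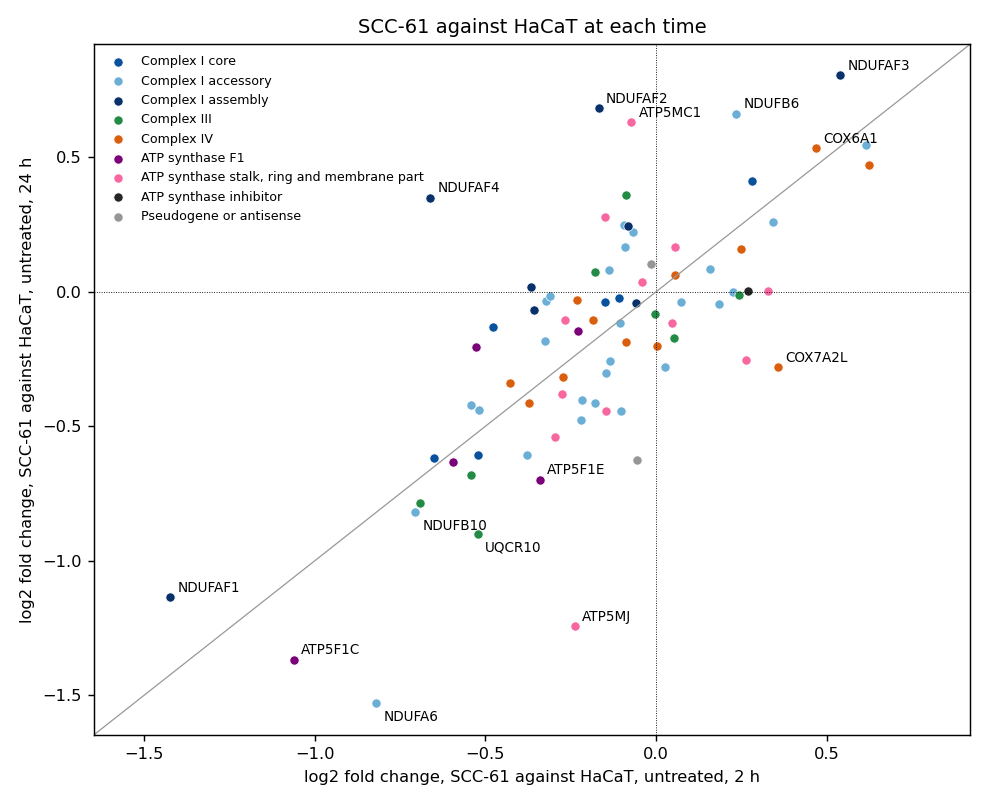
Log2 fold change of untreated SCC-61 against untreated HaCaT at 2 h (horizontal axis) and 24 h (vertical axis), 1 point for each of the 81 genes, coloured by complex; the grey line marks equal values. NDUFAF1, ATP5F1C and NDUFA6 lie far to the lower left, and NDUFAF4 and NDUFAF2 are lower in SCC-61 at 2 h and higher at 24 h.

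The F1 part of the ATP synthase, counted here with its central stalk, was the class that was lower throughout. All 5 of its genes were lower in SCC-61 at both times, with medians of -0.53 and -0.63. Among all genes, 32% were lower at 2 h and 36.6% at 24 h. ATP5F1C read 9.16 to 9.23 in SCC-61 and 10.18 to 10.31 in HaCaT at 2 h, a difference of -1.06 (SE 0.055, limma adjusted p = 2.35e-16), or 2.09-fold lower. At 24 h it was 2.58-fold lower (-1.37, adjusted p = 2.74e-19). The alpha subunit gene ATP5F1A differed by -0.59 at 2 h and -0.63 at 24 h, and the beta subunit gene ATP5F1B by -0.23 and -0.15, all past the threshold. Among complex III genes, UQCR10, a small subunit, was lower by 0.52 and 0.90 on the log2 scale at 2 h and 24 h (-0.52 and -0.90), and the core subunit gene UQCRC2 differed by -0.54 and -0.68.

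Complex I held the lowest value at each time. NDUFAF1, an early assembly factor of the membrane arm, read 6.64, 6.74 and 6.80 in SCC-61 and 7.99, 8.35 and 8.11 in HaCaT at 2 h. It was 2.68-fold lower in SCC-61 (-1.42, SE 0.092, adjusted p = 3.95e-14), and 2.20-fold lower at 24 h. NDUFA6 differed by -0.82 at 2 h and -1.53 at 24 h, when SCC-61 read 6.94 to 7.20 and HaCaT 8.57 to 8.59. In the other direction, NDUFAF3, an assembly factor of the matrix arm, was 1.45-fold higher in SCC-61 at 2 h and 1.75-fold at 24 h (0.54 and 0.80, adjusted p = 4.08e-10 and 3.34e-14). In complex IV, COX6A1, the form of its subunit found in most tissues, was higher by 0.47 and 0.53. COX4I1, the ubiquitous form of subunit 4, was lower by 0.27 and 0.32 (-0.27 and -0.32). COX6B2, a testis form of subunit 6B, was not well above background on any untreated HaCaT array at 2 h, and its level in SCC-61 was at least 1.13-fold higher (2 of 3 SCC-61 arrays detected, adjusted p = 0.00143). ATP5IF1 had probes that passed in opposite directions at 2 h (0.27 and -0.49), so that no direction is given for it.

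More of these genes passed between the 2 times in untreated cells than with AMP-18. From 2 h to 24 h, 47 of 81 passed in SCC-61, against 58.1% of all genes, and 37 fell and 10 rose, where 29% of all genes fell and 29% rose. In HaCaT 61 passed, against 64.6%, and 39 fell and 22 rose, where 31.5% fell and 33.1% rose. The medians of the members were -0.11 and -0.13, and those of all genes 0.00 and 0.02. The split by direction in SCC-61 depended on the normalization. After cyclic loess 26 fell and 22 rose in SCC-61 (median -0.05), and 35 fell and 23 rose in HaCaT (median -0.09). The labels name no batch, and any separate handling of the 2 harvests cannot be told apart from time. The 2 lines share no array here. A total of 27 genes fell in both lines, 7 rose in both and 2 moved in opposite directions, where 19.7%, 19.2% and 5.44% of all genes did so. The values correlated across the 81 genes with r = 0.70 (0.63 across all genes), again as a description.

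**Figure D4:**
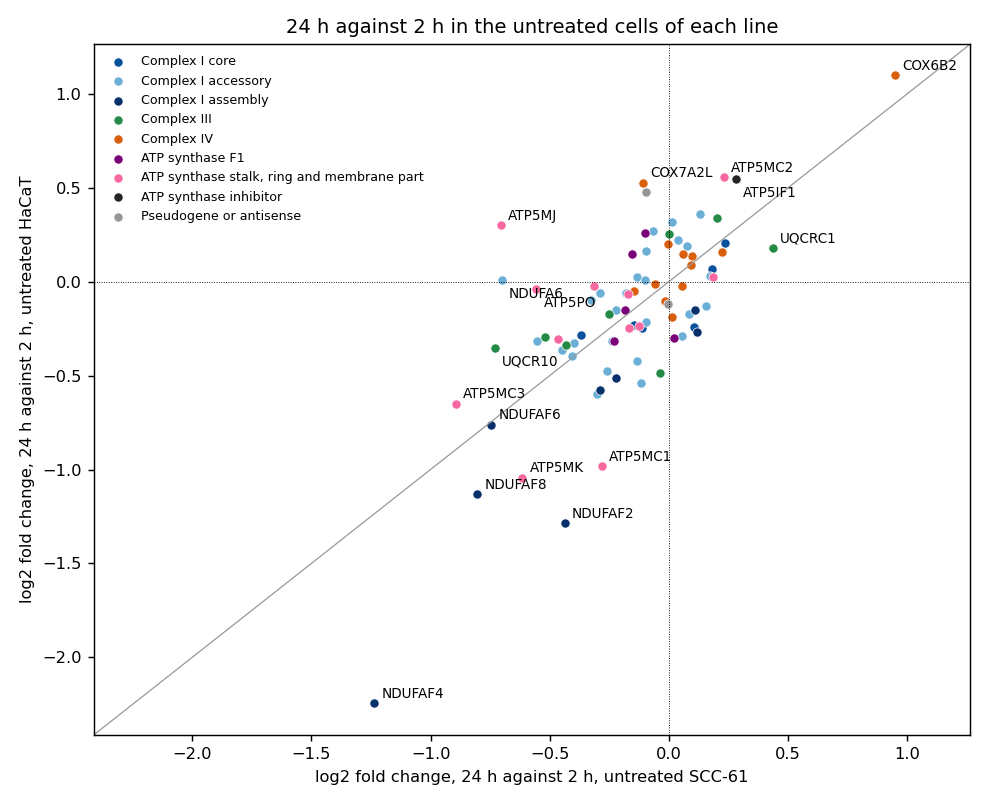
Log2 fold change from 2 h to 24 h in untreated SCC-61 (horizontal axis) and untreated HaCaT (vertical axis), 1 point for each of the 81 genes, coloured by complex; the grey line marks equal values, and COX6B2 in HaCaT rests on a 2 h level not well above background. NDUFAF4 lies farthest to the lower left, at -1.24 and -2.25, and NDUFAF8, NDUFAF6, ATP5MK and ATP5MC3 are also well below 0 on both axes.

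Of the complex I assembly factors named NDUFAF, 8 of 8 fell in HaCaT and 6 of 8 in SCC-61, with medians of -0.67 and -0.36. Among all genes, 31.5% fell in HaCaT and 29% in SCC-61. Of 6 other complex I assembly factors, outside the symbol rule, 1 rose and 1 fell in each line, with medians of -0.08 and -0.08. NDUFAF4 read 8.13, 8.17 and 8.19 at 2 h and 5.99, 5.84 and 5.92 at 24 h in HaCaT, a 4.74-fold fall (-2.25, SE 0.081, limma adjusted p = 2.41e-20). In SCC-61 it read 7.54, 7.58 and 7.39 and then 6.36, 6.21 and 6.24, a 2.35-fold fall (-1.24, adjusted p = 1.1e-13). The arrays of the 2 times were far apart in each line, and HaCaT started above SCC-61 and ended below it. NDUFAF2 fell by 1.29 in HaCaT and 0.44 in SCC-61, NDUFAF8 by 1.13 and 0.80, and NDUFAF6 by 0.76 and 0.74, all past the threshold. The NDUFAF8 probe did not pass the stricter detection filter. In the other fits it gave -1.19 to -0.80 in HaCaT and -0.95 to -0.57 in SCC-61. In SCC-61, NDUFAF3 at 0.11 (adjusted p = 0.0787) and NDUFAF7 at 0.12 (adjusted p = 0.15) did not pass.

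The 3 genes ATP5MC1, ATP5MC2 and ATP5MC3 encode the same mature c subunit of the membrane ring behind different import sequences, and they did not move together. ATP5MC1 read 10.36, 10.46 and 10.67 at 2 h and 9.48, 9.48 and 9.57 at 24 h in HaCaT, and fell 1.98-fold (-0.98, adjusted p = 2.32e-12). In SCC-61 it fell by 0.28 (adjusted p = 0.00286). ATP5MC3 fell by 0.65 in HaCaT and 0.89 in SCC-61 (adjusted p = 1.59e-05 and 1.28e-07). ATP5MC2 rose instead, from 10.71, 10.73 and 10.71 to 11.25, 11.19 and 11.38 in HaCaT (0.56, adjusted p = 6.93e-10) and by 0.23 in SCC-61 (adjusted p = 0.000919). A second, dimmer probe of ATP5MC2 did not pass in either line (0.28 and -0.03), so its rise rests on 1 probe, while the second probe of ATP5MC1 fell in both.

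In the ATP synthase, 10 of 12 peripheral stalk, ring and membrane genes fell in SCC-61 and 6 of 12 in HaCaT, where 29% and 31.5% of all genes fell. ATP5MK fell by 0.61 and 1.04. ATP5IF1, whose protein blocks the reverse reaction of the enzyme, rose by 0.28 in SCC-61 and 0.55 in HaCaT with its brightest probe (adjusted p = 0.000575 and 1.82e-08), and its second probe gave -0.22 and 0.06 and did not pass. In complex IV, 6 of 12 genes rose and 1 fell in HaCaT, and 2 rose and 1 fell in SCC-61. Among all genes, 33.1% rose in HaCaT and 29% in SCC-61, and no difference between the complexes was tested. COXFA4, outside the symbol rule, fell by 0.32 in HaCaT and by 0.30 in SCC-61 (adjusted p = 1.68e-05 and 3.72e-05). COX6A1 rose by 0.22 in SCC-61 and 0.16 in HaCaT. COX6B2 rose by 0.95 in SCC-61, and in HaCaT its level at 24 h was at least 1.57-fold that at 2 h (adjusted p = 7.08e-07). In complex III, the core subunit gene UQCRC1 rose by 0.44 and 0.18 in SCC-61 and HaCaT and UQCRC2 by 0.20 and 0.34, while UQCR10 fell by 0.73 and 0.35.

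**Figure D5:**
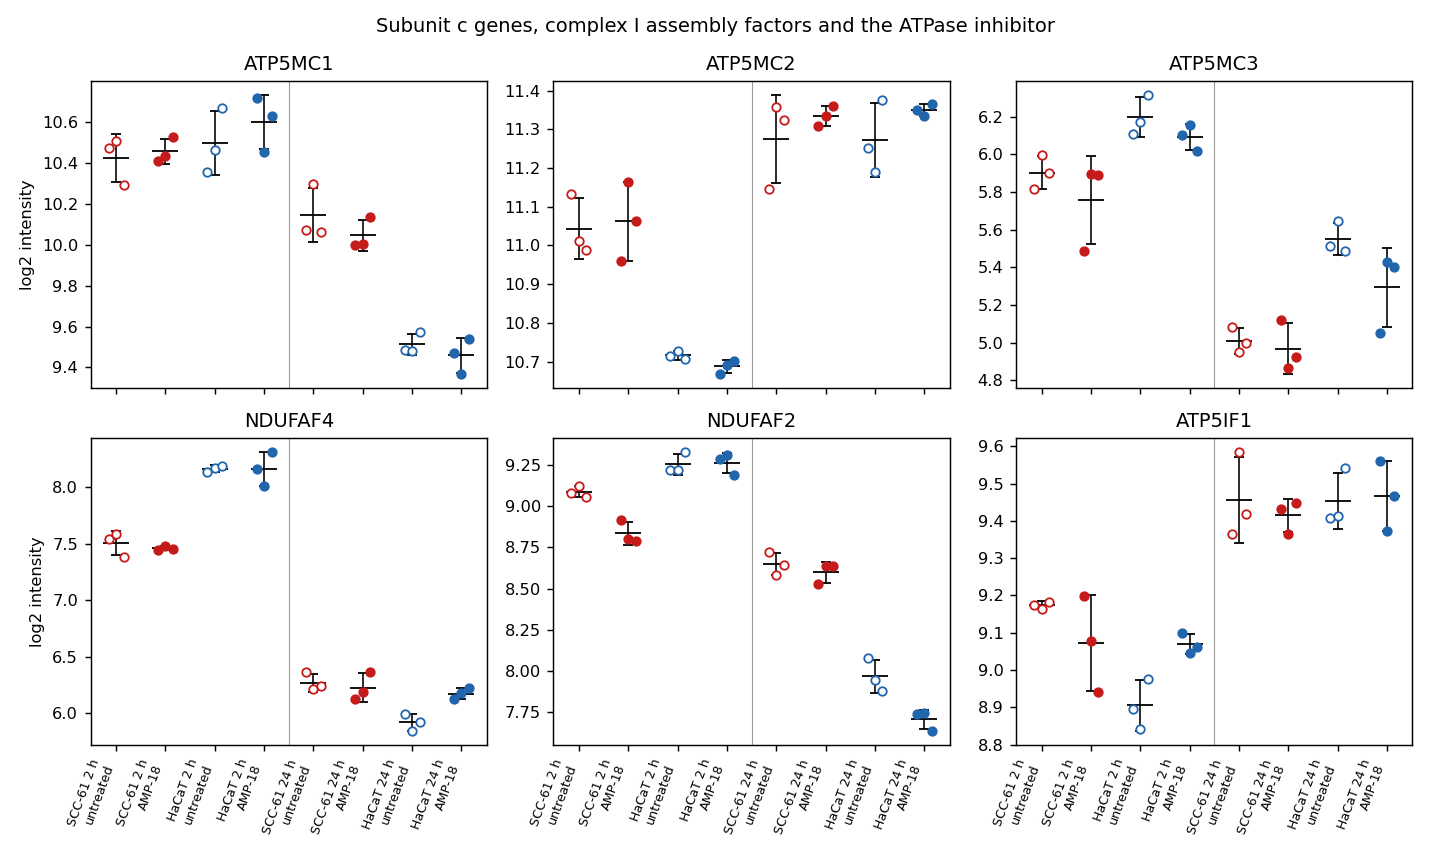
Log2 intensity (vertical axes) on every array of the 3 subunit c genes, 2 complex I assembly factors and the ATPase inhibitor gene, by group (horizontal axis); red is SCC-61, blue HaCaT, open points untreated, filled points AMP-18, and black marks are the mean and SD of 3 arrays. ATP5MC1, ATP5MC3, NDUFAF4 and NDUFAF2 are lower at 24 h and ATP5MC2 and ATP5IF1 higher. The brightest probe of each gene is shown, and the second probes of ATP5MC2 and ATP5IF1 did not pass in either line.

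The change with time differed between the lines for 34 genes, where 45.6% of all genes did. A total of 17 had the higher value in SCC-61 and 17 the lower, against 22% and 23.6% of all genes. ATP5MJ, a small subunit of the ATP synthase membrane part, showed the largest such difference among the values that were lower in SCC-61. It read 8.19, 8.34 and 8.20 at 2 h and 7.51, 7.52 and 7.58 at 24 h in SCC-61, and 8.47, 8.49 and 8.49 and then 8.75, 8.65 and 8.95 in HaCaT. It fell by 0.70 in the first line and rose by 0.30 in the second, a difference of -1.01 (SE 0.10, adjusted p = 3.98e-09). NDUFA6 fell by 0.70 in SCC-61, and in HaCaT gave 0.01 (difference -0.71, adjusted p = 3.39e-07). COX7A2L rose by 0.53 in HaCaT and gave -0.11 in SCC-61 (difference -0.64, adjusted p = 3.48e-06). NDUFAF4 and NDUFAF2 fell further in HaCaT, with differences of 1.01 and 0.85 (adjusted p = 2.35e-08 and 4.38e-09).

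Of other mitochondrial and related gene lists, some fell beside the members and others did not. With AMP-18 at 2 h in SCC-61, where 3.25% of all genes fell and 6.28% rose, 17 of 79 mitochondrial ribosomal protein genes fell and 0 rose (median -0.12), as did 13 of 77 cytosolic ribosomal protein genes (median -0.10), 2 of 33 proteasome genes (median -0.07) and 1 of 22 genes of mitochondrial protein import (median -0.11). With limma 0 passed among 14 electron carrier genes, 6 other complex I assembly factors and 6 carriers of ATP, ADP and phosphate (medians -0.05, -0.04 and -0.03), where 2, 0 and 0 had an unadjusted p under 0.05, and of 15 vacuolar ATPase genes 2 rose and 0 fell. Of 5 complex II genes, SDHD, a membrane anchor subunit, fell by 0.33 (adjusted p = 0.00648). Among 16 tricarboxylic acid cycle genes 3 fell and 1 rose (median 0.00), SUCLG2 by 0.26 and OGDH to 0.29. Of 16 assembly genes of complex IV, 1 rose and 1 fell, and 12 were below 0 (median -0.09). The one that rose was COX19, a copper-handling factor, by 0.42 (adjusted p = 0.00128). Of 16 regulators of mitochondrial gene expression, SSBP1, the single-strand binding protein of mitochondrial DNA, fell by 0.29 (adjusted p = 0.00416). In the same comparison 6 of 9 keratinocyte and epithelial genes rose and 0 fell, among them ITGB4 by 0.51 and DSP by 0.34, and 0 of 4 fibroblast genes passed. Their part in the fall of the respiratory genes was not tested.

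With time, lists differed in direction. Among all genes, 29% fell and 29% rose in SCC-61, and 31.5% fell and 33.1% rose in HaCaT. Between 2 h and 24 h, 58 of 79 mitochondrial ribosomal protein genes fell in each line (medians -0.36 in SCC-61 and -0.49 in HaCaT), as did 18 of 22 import genes in each (medians -0.55 and -0.66). Outside mitochondria, 27 of 33 proteasome genes fell in SCC-61 and 23 in HaCaT. Of 77 cytosolic ribosomal protein genes, 30 fell and 9 rose in SCC-61, and 15 fell and 24 rose in HaCaT. Of 15 vacuolar ATPase genes, 7 fell and 4 rose in SCC-61, and 2 fell and 12 rose in HaCaT. Of 16 tricarboxylic acid cycle genes 7 rose and 8 fell in SCC-61 and 5 rose and 7 fell in HaCaT, and of 5 complex II genes 1 rose and 1 fell in SCC-61 and 3 rose and 0 fell in HaCaT. Of 16 regulators, 7 fell and 2 rose in SCC-61 and 12 fell and 1 rose in HaCaT. TFAM, which packages and transcribes mitochondrial DNA, fell by 1.23 and 1.32, GABPB1, a subunit of NRF2, by 0.73 and 1.60, and PPRC1, a coactivator of the PGC-1 family, by 0.74 and 2.74, all past the threshold. Of 14 electron carrier genes, 9 fell and 3 rose in SCC-61 (median -0.28) and 6 fell and 3 rose in HaCaT (median -0.03). CYCS, cytochrome c, fell by 0.76 and 1.19, and PDSS1, an enzyme of ubiquinone synthesis, by 1.17 and 2.12. BCS1L, a complex III assembly factor, fell by 0.67 and 1.48. MYC fell by 1.76 in HaCaT (adjusted p = 2.42e-19) and gave -0.02 in SCC-61 (adjusted p = 0.813). In the untreated lines at 2 h, 12 of the 16 regulators were lower in SCC-61 and 0 higher (median -0.55), the lowest TFB1M, a mitochondrial ribosomal RNA methyltransferase, at -2.03. At 24 h 7 were lower and 5 higher (median -0.09). Among all genes, 32% were lower and 31.3% higher at 2 h, and 36.6% and 33.9% at 24 h. With time, 6 of 9 keratinocyte and epithelial genes and 3 of 4 fibroblast genes rose in each line, and their part in the values of the members was not tested.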

How the data were processed

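The authors hybridized biotinylated cRNA to Illumina HumanHT12v4 bead arrays, and GenomeStudio 2011.1 is named in the submitters' processing notes. The deposited log2 intensities were used as they stand. Their medians of 4.218 to 4.22 and equal highest value of 13.96 are those of quantile-normalized data, and the method is not given in the sources used here. The deposited detection p-values come in steps of 1/770. Probes were named from the platform annotation, and 30113 of 47323 had 1 symbol, 8 several and 17202 none.

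Group means were fitted to all 24 arrays with limma 3.58.1 in R 4.3.3 (lmFit, eBayes with a trend, 16 residual and 12.62 prior degrees of freedom) without a replicate block, and tests were two-sided. Same-numbered samples did not deviate together (residual correlations -0.16 to 0.05), and no label states that the numbers mark a pairing. A pairing by culture, day or chip was not tested beyond these correlations. The code was tested on simulated data. The number of arrays limits the precision. Where a probe was not well above background in 1 group, the fold is a bound, taken on each array against its own value or the dimmest detected probe, whichever was higher.

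The members, the 157 entries of the shorter lists and the tests were chosen with earlier results of these data known. Genes named are up to 10 rises and 10 falls past the threshold without overlap in each comparison, up to 5 in each direction for differences of effects, the smallest p where none passed, and the main subunits and isoforms. Not all of them are described, and any beyond them were named after their values were seen. Alternatives were no or a stricter detection filter (p under 0.01 on all arrays), cyclic loess, centring, a constant of 16 added, a replicate block, no trend, only the arrays compared, all probes, the methods' t-test (two-sided, per probe, stated in the study for groups in general, while it ranked the genes of the arrays by Fisher's ratio), and each array left out.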

Additional observations from a re-analysis of the deposited data

Results flagged for a closer look

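The effect of AMP-18 at 2 h differed between the lines, by the test of the difference itself in limma, for NDUFAB1 (-0.42), UQCRHL (-0.38) and COX7B (-0.32), each lower in SCC-61. The change from 2 h to 24 h in untreated cells differed between the lines for 34 of the 81 genes (42%), where 45.6% of all genes did. The 5 with the highest differences, SCC-61 minus HaCaT, were NDUFAF4 (1.01), NDUFAF2 (0.85), ATP5MC1 (0.70), UQCRQ (0.45) and ATP5MK (0.43), all with the lower value in HaCaT. The 5 with the lowest were ATP5MJ (-1.01), NDUFA6 (-0.71), COX7A2L (-0.64), UQCRBP1 (-0.57) and ATP5PO (-0.52). In SCC-61 the AMP-18 effect on COX7C differed between 24 h and 2 h by 0.24. The causes were not tested. Groups of 3 arrays are too small for a test of single outlying arrays.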

How the results depend on the processing

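The count of genes called in SCC-61 at 2 h with AMP-18 (18) became 11 with no detection filter, 8 with no trend, 6 with only the arrays compared and 0 with the methods' t-test, all lower. It was 8 to 15 with 1 array left out, of which 8 to 13 were among the 18. In SCC-61 at 24 h the count of 0 became 1 with the stricter filter, and was 0 to 1 with an array left out. In HaCaT at 24 h the count of 2 became 1 with no filter, cyclic loess, the constant of 16 or the replicate block. It became 0 with no trend, only the arrays compared or the t-test. With an array left out it was 0 to 3, of which 0 to 1 were among the 2. The difference between lines at 2 h (3 genes) became 5 with the stricter filter or only the arrays compared and 0 with no trend (0 to 9). The change of the AMP-18 effect in SCC-61 with time (1) became 0 with no filter, no trend or only the arrays compared, and 2 with the stricter filter (0 to 4). The replicate block changed no other count by over 1.5 times. It gave 17 for SCC-61 at 2 h, and it is a fit on numbers that no label describes as a pairing. With an array left out, counts were 47 to 50 and 52 to 55 between the lines at 2 h and 24 h, 40 to 43 and 53 to 59 with time in SCC-61 and HaCaT, 28 to 34 for the difference of these, and 0 for AMP-18 in HaCaT at 2 h and between lines at 24 h. Over 115 results of single genes, 1079 of 1122 values under other settings and 728 of 792 with an array left out kept direction and side of the threshold, and 0 reversed. These totals include results that did not pass in the main fit, and most of the losses were of AMP-18 results. NDUFAF3 in HaCaT at 24 h was lost in 7 of 10 settings and in 6 of 6 fits with an array left out. The change of the COX7C effect was lost in 3 of 9 and 8 of 12. The other causes were not tested. Centring changed nothing, because the median of the tested probes was equal on all arrays.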
